A study of Arabidopsis thaliana with 12 samples.

Results

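Roots of Arabidopsis thaliana seedlings given a mutant of the soil bacterium Azospirillum brasilense were compared with roots given its parent strain Az39, 24 h after inoculation. The comparison took the 2 count columns whose names carry the mutant label ipdc and the 2 whose names carry Az39 at 24 h, so 4 libraries of the 12 in the series. All plants were wild type Col seedlings on vertical sucrose agar plates, treated 4 days after planting with 2 µL of a bacterial suspension or of 0.9% saline. The groups used here are therefore ipdc, Az39 and saline at 24 h, and the same 3 treatments at 7 days, each with 2 biological replicates of at least 50 pooled root systems. The bacterial groups share the saline that carried the cells, and the mutant is known here only by its label and its parent strain.

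In A. brasilense the ipdC gene encodes indole-3-pyruvate decarboxylase, an enzyme on the bacterium's route from tryptophan to the auxin indole-3-acetic acid. Bacterial auxin is known to shorten the primary root and to promote lateral roots and root hairs in host plants, and plant roots read auxin through Aux/IAA repressors and ARF transcription factors. The contrast of ipdc with Az39 asks which root transcripts differ when the inoculum is the mutant. Bacterial numbers and auxin levels were not analysed here.

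The 4 compared libraries held 11807598 and 12010058 counts with ipdc, against 9665704 and 14289186 counts with Az39. The saline libraries of 24 h were deeper, with 18649442 and 21541793 counts, and those of 7 days held 14141640 to 19330423 counts. Root markers were present in all 6 libraries of 24 h, and none of 12 was at 0. Their summed level was 7340 and 7780 CPM (read counts scaled to a common library size) with ipdc, 7380 and 6390 CPM with Az39 and 6180 and 7630 CPM with saline. PYK10 alone made up most of each sum, at 7132 and 7577 CPM with ipdc and 7122 and 6157 CPM with Az39. The sums therefore do not show the level of the other root markers.

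The 24 h ipdc libraries stood apart from every other library in transcripts of other organs, and each did so in its own way. A list of 20 seed storage and oil body genes took 5.31% of the counts in ipdc replicate 1 and 0.307% in ipdc replicate 2, against 0.00204% and 0.135% with Az39. The other 8 libraries had 0.00428% to 0.0925%. The 3 lists of photosynthesis and chlorophyll genes took 0.818% in ipdc replicate 1 and 4.1% in ipdc replicate 2, against 0.515% and 0.455% with Az39, and 0.274% to 0.74% elsewhere. Replicate 1 was thus high in seed transcripts and replicate 2 in leaf-type transcripts. Among 14 defining seed markers, summed levels were 57200 and 3150 CPM with ipdc, against 15.9 and 1260 CPM with Az39. CRU2, SESA3, OLEO2 and EM1, 4 of these markers, had no count in Az39 replicate 1, which allows up to 0.31 CPM each. Among 14 defining shoot markers, summed levels were 2790 and 15000 CPM with ipdc, against 1150 and 916 CPM with Az39, and none was at 0. In pooled tissue, more cells of a type and more RNA per cell cannot be told apart. The part of these transcripts in the results that follow was not tested, and several of the results are given with and without each ipdc library.

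**Figure D1:**
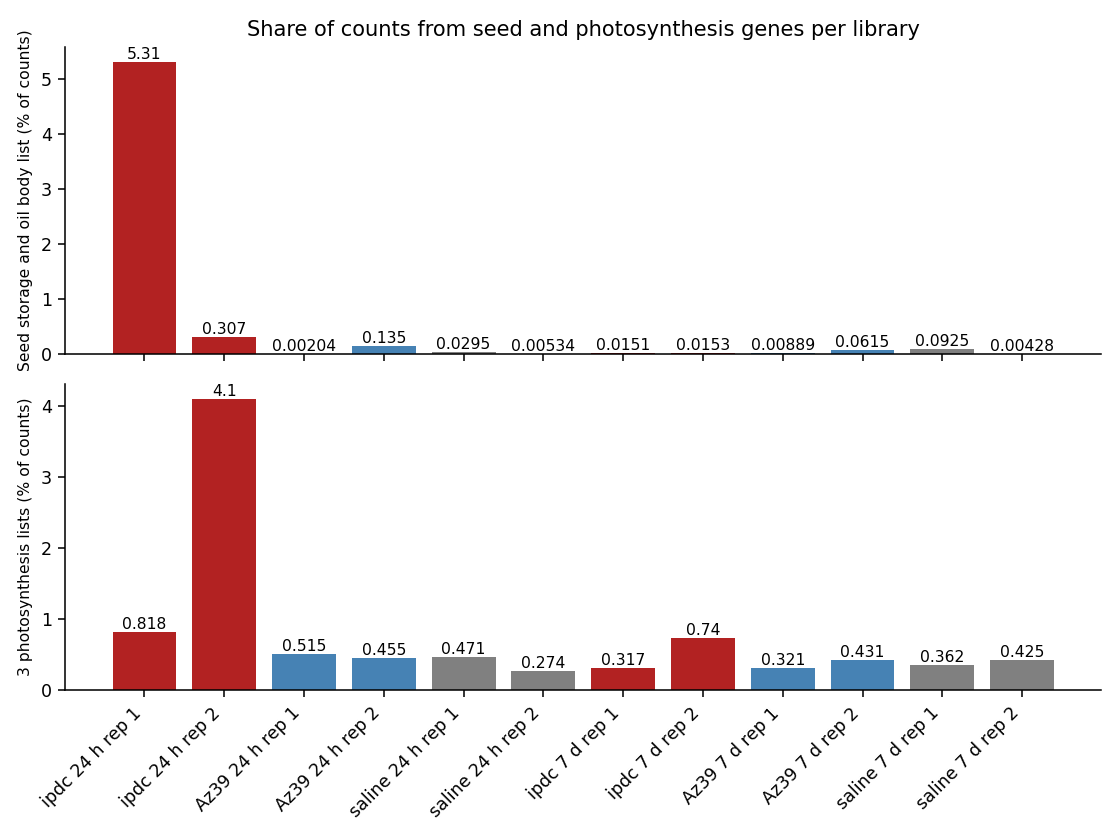
Share of each library's counts (y axis, %) taken by the seed storage and oil body list (upper panel) and by 3 photosynthesis and chlorophyll lists (lower panel) in all 12 libraries; bars are single libraries, red for ipdc, blue for Az39 and grey for saline. The 24 h ipdc replicate 1 reached 5.31% in the upper panel and replicate 2 reached 4.1% in the lower. Outside the 24 h ipdc libraries none passed 0.135% in the upper panel or 0.74% in the lower.

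Roots with ipdc had higher levels of 164 genes than roots with Az39 and lower levels of 17, of 18867 tested. The test was edgeR's quasi-likelihood F test over all genes with Benjamini-Hochberg adjustment, and a gene was called at an adjusted p under 0.05. Calls were 0.959% of the tested genes, 0.869% in the higher direction and 0.0901% in the lower. The genes called higher had a median log2 fold change of 1.63 and those called lower a median of -1.35. At an unadjusted p under 0.05 there were 3513 genes, or 18.6%. Both ipdc libraries lay above both Az39 libraries for 23.9% of all genes and below them for 21.7%.

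The number of calls depended on which libraries were fitted, while the fold changes of the called genes moved less. The median of the 164 higher genes was 1.63 in the main fit, 1.51 without Az39 replicate 1 and 1.76 without Az39 replicate 2. These last 2 fits kept both ipdc libraries. Without Az39 replicate 1 edgeR called no gene, with 2122 at an unadjusted p under 0.05 and a smallest adjusted p among these 181 genes of 0.171. Without Az39 replicate 2 it called none either, with 2919 and 0.109. A fit of the 24 h libraries only called none, with 2713 at an unadjusted p under 0.05. Over all 12 libraries DESeq2 called 1388 genes, or 6.7% of those it fitted, and limma-voom 74, or 0.392%. The direction of all 181 genes was the same in each of the 4 fits that left out 1 compared library. These genes were chosen by calls on the same libraries, so their kept direction and steady medians are no separate support. Without ipdc replicate 1 there were 595 calls in all and without ipdc replicate 2 there were 1331. Without ipdc replicate 1 the median log2 fold change was 1.59 for the 164 higher genes and -1.23 for the 17 lower genes. Without ipdc replicate 2 it was 1.55 and -1.49. Some of the 181 calls were lost in each of these fits. Both fits leave the ipdc group of 24 h with 1 library, so the spread rests on the other groups. The difference between the ipdc libraries does not enter it. Calls and adjusted p from these fits, here and below, therefore do not show that a gene holds despite that difference. When the log2 share of seed storage transcripts entered the model as a covariate, none of the 181 genes was called, while 121 of them were with the log2 share of photosynthesis transcripts. These log2 shares were added after the data were seen. With the shares on their own scale, 145 of the 181 genes were called with the seed storage share and 157 with the photosynthesis share, so the form of the covariate decided the seed storage value.

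The ipdc libraries differed more between replicates than the Az39 libraries did. Genes over 2-fold apart between replicates, on CPM plus 1, numbered 1995 with ipdc, against 512 with Az39. Of the 164 higher genes, 131 were within 2-fold between the ipdc libraries, a share of 79.9%, against 84.2% of all genes, so the called genes were no closer between the ipdc libraries than genes in general. Another 24 were over 2-fold higher in replicate 1 and 9 were over 2-fold higher in replicate 2. Of the 17 lower genes, 16 were within 2-fold.

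**Figure D2:**
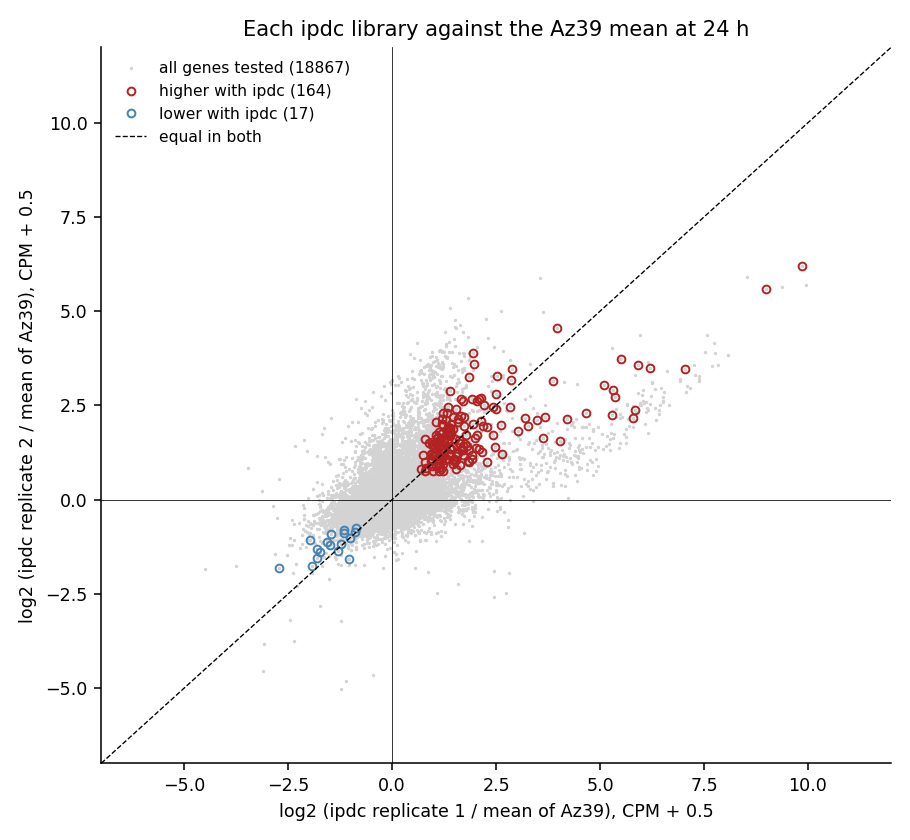
Each gene's log2 ratio to the Az39 mean in ipdc replicate 1 (x axis) and ipdc replicate 2 (y axis), from CPM plus a pseudocount of 0.5; grey points are all 18867 genes tested, red circles the 164 called higher with ipdc and blue circles the 17 called lower, and the dashed line marks equal ratios. Of the red circles, 131 lie within 2-fold between the libraries, and those far below the line, such as the heat shock genes, were high in replicate 1.

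Many of the genes with the smallest p-values encode proteins of the plastid, the organelle that becomes the chloroplast in leaves and stays colourless in most root cells. Plastids keep a bacterial-type ribosome, a transcription apparatus and protein import machinery, whose parts are mostly encoded in the nucleus. The annotation's location text places 2460 of the tested genes in plastids, which is 13% of those tested, and 85 of these were called higher, which is 51.8% of the 164. Called lower were 2. Outside the photosynthesis lists, 83 of 2414 such genes were called higher, and their median log2 fold change was 0.19, or 0.16 without ipdc replicate 1 and 0.12 without ipdc replicate 2, beside 0.03 over all genes. Genes with a location elsewhere were 39.4% of those tested and 23.8% of the higher calls. This grouping and the plastid families below were formed after the values were seen, as was the choice of the genes in them.

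Plastid translation supplied the gene with the smallest p. AT5G24490, annotated as a 30S ribosomal protein, had 90.8 and 89.5 CPM with ipdc, against 28.8 and 30.4 CPM with Az39 (log2 fold change 1.61 ± 0.14, adjusted p = 0.00682). SCO1, the plastid elongation factor G, had 109.7 and 142 CPM with ipdc, against 38.9 and 45.1 CPM with Az39 (1.58 ± 0.18, adjusted p = 0.0161). The groups were well apart in both genes, with the replicates of each strain close together. The elongation factor Ts gene emb2726 had 163 and 223 CPM with ipdc, against 48.1 and 49.7 CPM with Az39 (1.98 ± 0.26, adjusted p = 0.0178). RABE1b, which encodes the plastid elongation factor Tu, had 257 and 310.2 CPM with ipdc, against 109 and 94.0 CPM with Az39 (1.48 ± 0.19, adjusted p = 0.0178). FUG1, the plastid translation initiation factor 2, had 50.1 and 73.5 CPM with ipdc, against 23.0 and 23.7 CPM with Az39 (1.401 ± 0.21, adjusted p = 0.0244). In each of these the lower ipdc library was above the higher Az39 library.

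Ribosomal protein genes were called too, and 2 are given here with their values. Others called higher, by their annotated products, include SSR16, AT4G17560, EMB3126, EMB3113 and emb1473. RPL4, a large subunit protein, had 81.7 and 123 CPM with ipdc, against 29.8 and 34.5 CPM with Az39 (1.67 ± 0.21, adjusted p = 0.0161). RPL12-C, another, had 59.2 and 97.8 CPM with ipdc, against 19.1 and 23.1 CPM with Az39 (1.89 ± 0.28, adjusted p = 0.0228). Both genes were higher in ipdc replicate 2 than in replicate 1, with Az39 below both. A match of the annotation text to plastid ribosomal proteins gave 20 tested genes and did not take in all ribosomal protein genes called. Of the 20, 2 were called higher and 17 had both ipdc libraries above both Az39 libraries, against 0.869% and 23.9% of all genes. The median of the 20 was 1.34. That median was 1.74 without ipdc replicate 1 and 0.72 without ipdc replicate 2; replicate 2 was the library rich in photosynthesis transcripts.

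The plastid transcription apparatus showed smaller differences that depended less on one library. PTAC proteins were found in the plastid's transcriptionally active chromosome, and 5 of 18 tested PTAC genes were called higher, with 16 of 18 having both ipdc libraries on top. Over all genes the shares were 0.869% and 23.9%. The PTAC median was 1.04, or 1.02 without ipdc replicate 1 and 0.93 without ipdc replicate 2. PTAC6 had 49.2 and 52.1 CPM with ipdc, against 23.4 and 27.5 CPM with Az39 (0.99 ± 0.17, adjusted p = 0.0399), and PTAC13 had 35.2 and 35 CPM with ipdc, against 14.0 and 18.8 CPM with Az39 (1.09 ± 0.20, adjusted p = 0.0429). PDE312, which is also a PTAC protein, had 72.3 and 55.5 CPM with ipdc, against 22.2 and 27.4 CPM with Az39 (1.36 ± 0.24, adjusted p = 0.0429), with an adjusted p over 0.05 without ipdc replicate 1 (0.0727), as for PTAC3 (0.0892). RNA-binding proteins of the plastid were also called. CP29, a chloroplast RNA-binding protein, had 543 and 509 CPM with ipdc, against 182 and 223 CPM with Az39 (1.38 ± 0.18, adjusted p = 0.0178), and the helicase gene emb1138 had 420.0 and 249 CPM with ipdc, against 102 and 118 CPM with Az39 (1.61 ± 0.23, adjusted p = 0.0228). The Az39 libraries were the lower pair in all of these genes.

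Genes for moving proteins into and across plastid membranes were called as well. ALB3 inserts light-harvesting proteins into the thylakoid, and it had 213 and 207 CPM with ipdc, against 75.4 and 87.8 CPM with Az39 (1.36 ± 0.17, adjusted p = 0.0169). HCF106, of the twin-arginine pathway, had 36.6 and 39.2 CPM with ipdc, against 16.0 and 16.7 CPM with Az39 (1.21 ± 0.16, adjusted p = 0.0178). AGY1, the plastid SecA, had 68.4 and 55.9 CPM with ipdc, against 27.9 and 30.2 CPM with Az39 (1.10 ± 0.16, adjusted p = 0.0228). The ipdc replicates differed little in these 3 genes and were each well above Az39. SCY1, the SecY channel, had 65.1 and 50.3 CPM with ipdc, against 27.3 and 30.1 CPM with Az39 (1.01 ± 0.18, adjusted p = 0.0429), and its adjusted p was 0.0811 without ipdc replicate 1. Of 25 tested genes of the envelope translocon, 2 were called, TOC33 at 1.24 (adjusted p of 0.0928 and a log2 fold change of 0.79 without ipdc replicate 1) and TIC55-II at 1.35, and the median was 0.18. The chaperone gene CLPC1, of the Clp protease, had 487 and 356 CPM with ipdc, against 173 and 173 CPM with Az39 (1.28 ± 0.19, adjusted p = 0.0240), higher with ipdc in both libraries.

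**Figure D3:**
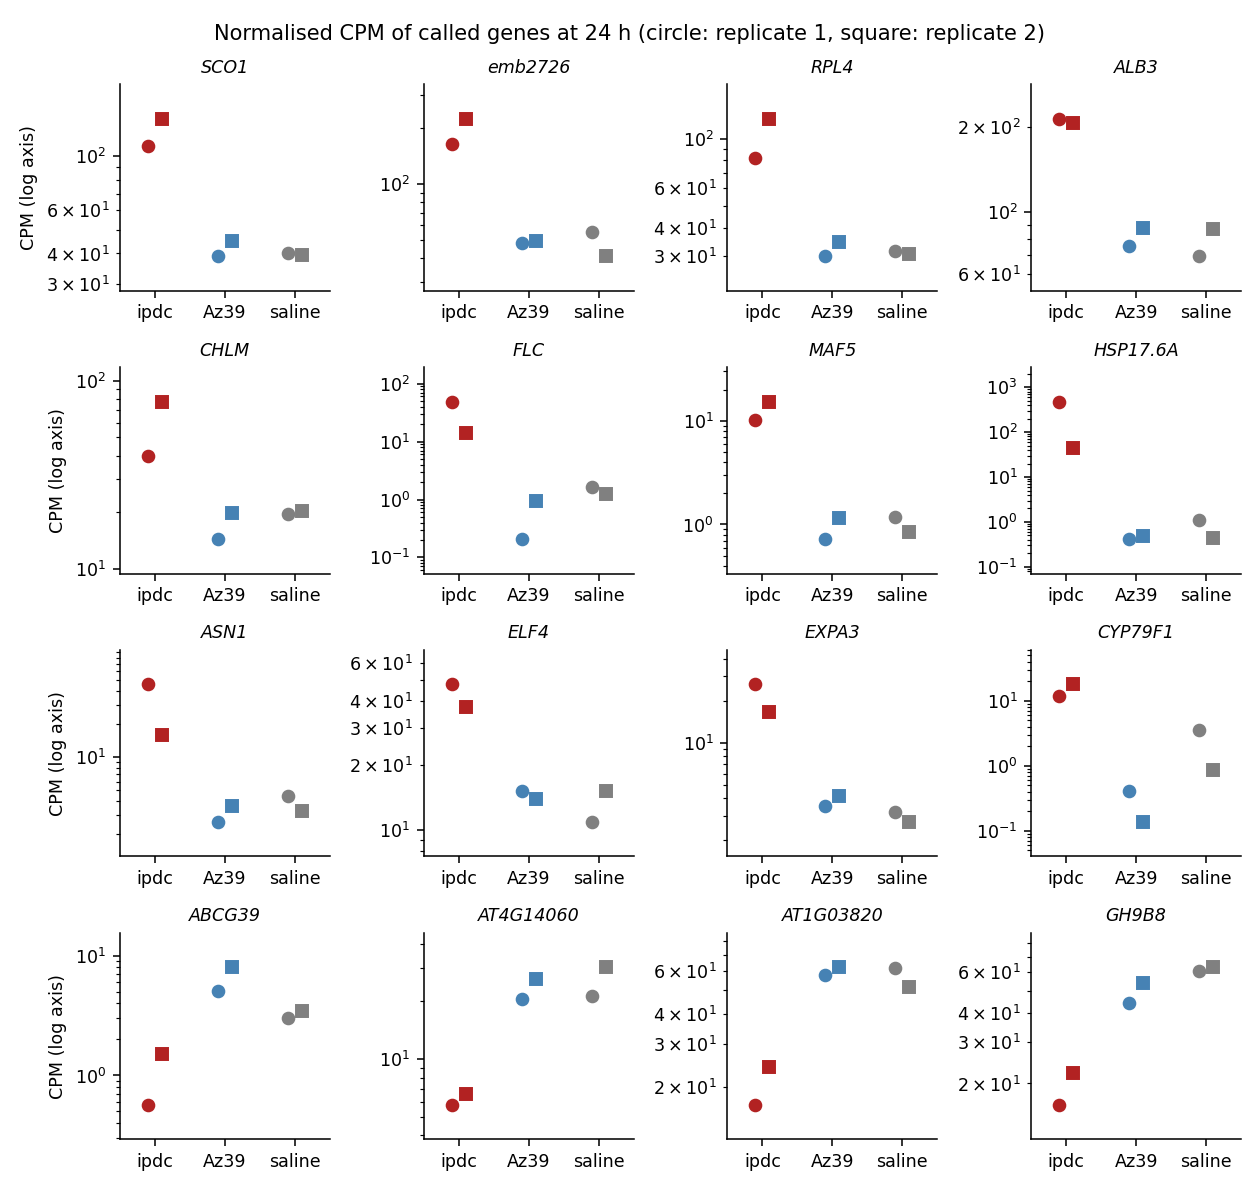
Normalised CPM (log axis, scaled per panel) of 16 called genes at 24 h with ipdc (red), Az39 (blue) and saline (grey); circles are replicate 1 and squares replicate 2. In the upper row's plastid genes both ipdc points lie above the others; FLC, HSP17.6A and ASN1 show a wide gap between the ipdc replicates; the 4 genes of the bottom row were called lower with ipdc.

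Genes for photosynthesis itself were higher in both ipdc libraries, which were far apart, and edgeR called few of those listed. Related genes outside the lists were called higher too, among them LPA3, annotated for photosystem II accumulation, and AT1G76570, of the chlorophyll-binding family. Another was CP12-1, at 2.64 without ipdc replicate 1 and 1.93 without ipdc replicate 2. These 3 were picked after their values were seen. All 48 tested genes of the light reactions had both ipdc libraries above both Az39 libraries, against 23.9% of all genes. None of the 48 was called by edgeR or limma-voom, with 44 at an unadjusted p under 0.05 and 29 called by DESeq2. Their median was 2.66. This median was 3.41 without ipdc replicate 1 and 0.96 without ipdc replicate 2. RBCS1A, a small subunit of Rubisco, had 634 and 3579 CPM with ipdc, against 204 and 153 CPM with Az39 (3.56 ± 0.99, adjusted p = 0.0938). Replicate 2 was the high library there. Of 24 Calvin cycle and photorespiration genes, with a median of 2.92, or 3.604 without ipdc replicate 1 and 1.51 without ipdc replicate 2, edgeR called 1 and DESeq2 15. The edgeR call was RPE, ribulose-phosphate epimerase, with 78.3 and 158 CPM with ipdc, against 32.6 and 42.3 CPM with Az39 (1.66 ± 0.32, adjusted p = 0.0481), and 1.06 without ipdc replicate 2.

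Chlorophyll synthesis gave 2 calls among 15 tested genes, with a median of 1.77, or 2.13 without ipdc replicate 1 and 0.67 without ipdc replicate 2. CHLM, which methylates magnesium protoporphyrin IX, had 39.7 and 77.4 CPM with ipdc, against 14.4 and 19.9 CPM with Az39 (1.77 ± 0.30, adjusted p = 0.0373). CAO, which makes chlorophyll b, had 27.7 and 38.6 CPM with ipdc, against 8.54 and 9.39 CPM with Az39 (1.89 ± 0.33, adjusted p = 0.0403). Both ipdc libraries were above Az39, and replicate 2 was the higher. Among genes chosen after their values were seen, LIL3:2, a light-harvesting-like protein of chlorophyll synthesis, had 163 and 132 CPM with ipdc, against 42.6 and 56.2 CPM with Az39 (1.57 ± 0.19, adjusted p = 0.0161). ABA1, zeaxanthin epoxidase of the path to abscisic acid, had 117 and 64.9 CPM with ipdc, against 30.4 and 31.0 CPM with Az39 (1.57 ± 0.24, adjusted p = 0.0255). In these last genes replicate 1 was the higher ipdc library.

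Other genes called higher, chosen here after their values were seen, include enzymes of sugar, starch and vitamin metabolism and proteins of the peroxisome, for which no list was tested. FBP, at chr1:16467298-16470500, encodes the fructose-1,6-bisphosphatase of sucrose synthesis and had 113 and 88.0 CPM with ipdc, against 29.9 and 26.3 CPM with Az39 (1.84 ± 0.17, adjusted p = 0.00682). PEX11D, a factor of peroxisome division, had 29.5 and 44.5 CPM with ipdc, against 5.97 and 6.80 CPM with Az39 (2.53 ± 0.29, adjusted p = 0.0161). The peroxisomal catalase CAT3 had 1035 and 628 CPM with ipdc, against 309 and 357 CPM with Az39 (1.32 ± 0.23, adjusted p = 0.0387). The ipdc libraries lay above Az39 in all 3 genes. The starch-related genes PHS2, an alpha-glucan phosphorylase, and SEX4, a phosphatase of starch breakdown, had log2 fold changes of 1.298 ± 0.18 and 1.05 ± 0.20, with adjusted p of 0.0178 and 0.0471, the second of which was 0.0747 without ipdc replicate 1. PDX1.1, of vitamin B6 synthesis, had 162 and 65.2 CPM with ipdc, against 15.74 and 17.01 CPM with Az39 (2.79 ± 0.43, adjusted p = 0.0264), and THI1, of thiamine synthesis, had 428 and 634 CPM with ipdc, against 106 and 100.1 CPM with Az39 (2.37 ± 0.41, adjusted p = 0.0387). For PDX1.1 the value without ipdc replicate 1 was 1.95.

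Promoters are shown because many plastid genes were called in one direction. Another reason is that a heat shock gene with a match to the string GAANNTTC can be set beside one without a match. Windows were the 250 bases before each gene's annotated start in RefSeq TAIR10.1, read for 18855 of the tested genes. The 6-base I-box core GATAAG, known from promoters of light-regulated genes, was on either strand in 22% of the promoters of genes called higher, 5.88% of those called lower and 12.4% of all. TATCCA, a sugar starvation element, was in 22.6%, 11.8% and 14.2% of the same sets. In the 24 higher genes over 2-fold higher in ipdc replicate 1, TATCCA was in 37.5% and GATAAG in 16.7%. In the 131 within 2-fold between the ipdc libraries, TATCCA was in 19.8% and GATAAG in 22.9%. These motifs can overlap, as CTTATCCA, in 4 of the 164 and in 231 of all promoters, and 6.1% of the higher set held both, against 2.63% of all. A match is a run of letters, and whether any was bound was not tested. The 3 genes of smallest p that hold GATAAG are printed 5′ to 3′ on the gene's strand, with the motif or its reverse complement CTTATC in capitals. AT5G24490 (chr5:8365351-8365600, plus strand) holds it 2 times, SCO1 (chr1:23236448-23236697, minus strand) and AT4G32340 (chr4:15614545-15614794, minus strand, a tetratricopeptide repeat protein) once each.
AT5G24490: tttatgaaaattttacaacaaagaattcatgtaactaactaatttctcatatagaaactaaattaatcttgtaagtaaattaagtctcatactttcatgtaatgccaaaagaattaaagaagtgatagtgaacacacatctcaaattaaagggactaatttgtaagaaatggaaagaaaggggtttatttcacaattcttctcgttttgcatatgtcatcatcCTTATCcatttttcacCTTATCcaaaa
SCO1: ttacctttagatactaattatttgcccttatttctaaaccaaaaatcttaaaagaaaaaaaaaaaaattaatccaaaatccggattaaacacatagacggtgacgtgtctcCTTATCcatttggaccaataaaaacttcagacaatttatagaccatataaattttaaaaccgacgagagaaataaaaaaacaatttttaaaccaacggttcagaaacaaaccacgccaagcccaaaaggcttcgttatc
AT4G32340: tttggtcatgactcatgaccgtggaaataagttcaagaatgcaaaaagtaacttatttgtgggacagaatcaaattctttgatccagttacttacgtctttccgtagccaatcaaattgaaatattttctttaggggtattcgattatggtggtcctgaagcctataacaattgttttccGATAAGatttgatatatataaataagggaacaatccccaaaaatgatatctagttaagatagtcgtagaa

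AT4G32340 itself had 15.05 and 18.6 CPM with ipdc, against 2.57 and 1.91 CPM with Az39 (2.92 ± 0.35, adjusted p = 0.0161), with replicates close and groups far apart. Other motifs stood as follows, as shares of the promoters of genes called higher, called lower and all genes. ACGTG, the core of the abscisic acid response element, was in 29.9%, 35.3% and 24.3%. CATGCA, the RY core of seed promoters, was in 5.49%, 29.4% and 7.83%. GAANNTTC, the heat shock element core, was in 7.32%, 0% and 9.33%. In the list of 28 small heat shock and chaperone genes it was in 10.7%. Only this arrangement was searched, so a promoter without a match may hold the element in another form. Added after the data were seen, the G-box CACGTG, which always holds ACGTG, was in 13.4%, 5.88% and 7.66%, and the evening element AAAATATCT in 4.88%, 5.88% and 2.55%. The 17 lower genes make their shares coarse. Within the higher set, ACGTG was in 54.2% and the G-box in 33.3% of the 24 genes over 2-fold higher in ipdc replicate 1. In the 131 genes within 2-fold between the ipdc libraries they were in 26.7% and 10.7%. Over the same 24 and 131 genes, CATGCA was in 12.5% and 3.82%, GAANNTTC in 8.33% and 6.87% and AAAATATCT in 4.17% and 4.58%.

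Part of the FLC clade was called higher with ipdc. FLC and the MAF genes encode MADS-box repressors of flowering, and 3 of 6 tested members were called higher, with a median of 1.64 that was 1.38 without ipdc replicate 1 and 1.78 without ipdc replicate 2. FLC, at chr5:3173382-3179448, had 48.8 and 13.8 CPM with ipdc, against 0.206 and 0.953 CPM with Az39 (5.63 ± 0.89, adjusted p = 0.0290). MAF5, at chr5:25997504-26002619, had 10.1 and 15.3 CPM with ipdc, against 0.720 and 1.16 CPM with Az39 (3.72 ± 0.55, adjusted p = 0.0228). MAF4, its neighbour at chr5:25992193-25996202, had 20.06 and 9.63 CPM with ipdc, against 0.926 and 2.59 CPM with Az39 (3.02 ± 0.52, adjusted p = 0.0394). FLC was highest in ipdc replicate 1, the library rich in seed transcripts, MAF5 in replicate 2, and all Az39 libraries were below. The other 3 members had log2 fold changes of 0.19 for MAF1, 0.26 for AGL31 and 0.23 for MAF3, and were not called. Without ipdc replicate 1 the fold change of FLC was 4.42 and without Az39 replicate 2 it was 7.20. MAF4 had 2.36 and 3.99 in the same fits. The MAF genes stand in tandem and are alike in sequence. How multiply mapping reads were counted is not given, so the split between them is uncertain.

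A few heat shock genes were called higher with ipdc, and these were highest in replicate 1, the library rich in seed transcripts. Of 28 tested small heat shock proteins and chaperones, 3 were called higher, and the list's median was 1.57, which was 0.55 without ipdc replicate 1 and 1.64 without ipdc replicate 2. HSP17.6A, a cytosolic small heat shock protein, had 476 and 45.3 CPM with ipdc, against 0.411 and 0.476 CPM with Az39 (9.16 ± 1.67, adjusted p = 0.0440, or 6.59 without ipdc replicate 1). HSP17.4, another, had 134 and 20.24 CPM with ipdc, against 1.23 and 1.43 CPM with Az39 (5.84 ± 1.08, adjusted p = 0.0459), and without ipdc replicate 1 it was 3.87, with an adjusted p of 0.0594. HSP23.6, of the mitochondrion, had 261 counts with ipdc and 1 with Az39, a depth-scaled ratio of 291 with a 95% counting interval of 51.8 to 11600, and its adjusted p without ipdc replicate 1 was 0.0530. All 3 genes were 6.63 to 10.5 times as high in ipdc replicate 1 as in replicate 2. HSFA9, the seed-specific heat shock factor, had 32.5 and 2.56 CPM with ipdc, against 1.03 and 2.52 CPM with Az39 and was not called (adjusted p = 0.106). Of 10 tested heat shock factors, with a median of 0.48, edgeR and limma-voom called none and DESeq2 called 2, and 3 had an unadjusted p under 0.05.

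The promoter of HSP17.4 (chr3:16984868-16985117, minus strand) is printed because it holds GAANNTTC at 2 places, in capitals, while that of HSP17.6A has no match in the same window. Only that string was searched, so the result does not show that HSP17.6A lacks a heat shock element. The printed sequence is read on the gene's strand from RefSeq TAIR10.1.
HSP17.4: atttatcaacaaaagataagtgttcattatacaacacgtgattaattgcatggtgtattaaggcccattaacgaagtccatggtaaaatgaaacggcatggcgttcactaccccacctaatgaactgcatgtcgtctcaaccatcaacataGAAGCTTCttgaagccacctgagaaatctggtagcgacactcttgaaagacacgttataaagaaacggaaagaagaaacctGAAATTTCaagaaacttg

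Seed protein lists had high medians that rested mostly on ipdc replicate 1, and edgeR and limma-voom called none of their genes. The 22 tested LEA and seed maturation genes encode the hydrophilic proteins of dry seeds and their regulators. All of these genes had both ipdc libraries above both Az39 libraries, against 23.9% of all genes tested, with a median of 5.61. Of the 22 genes, 18 had an unadjusted p under 0.05, and DESeq2 called 15. The median was 2.56 without ipdc replicate 1 and 6.51 without ipdc replicate 2. ECP31, a LEA protein, had 781 and 40.04 CPM with ipdc, against 0.309 and 0.272 CPM with Az39 (10.44 ± 2.07, adjusted p = 0.0506), just past the threshold. The 19 tested seed storage and oil body genes were mixed, with 9 higher and 1 lower at an unadjusted p under 0.05 and 4 called higher by DESeq2. Both ipdc libraries were above both Az39 libraries in 7 of them, against 23.9% of all genes, and 5 had a log2 fold change below 0. The list had a median of 3.499, with 0.60 without ipdc replicate 1 and 10.88 without Az39 replicate 2. SESA1, a 2S storage albumin, had 26.2 and 1.41 CPM with ipdc, against 0.103 and 124 CPM with Az39 (-2.18 ± 1.84, adjusted p = 0.570), so Az39 replicate 2 was its highest library, as it was for SESA3, SESA4 and CRU2, genes chosen after their values were seen. CRA1, a 12S storage globulin, had 32469 and 1681 CPM with ipdc, against 7.41 and 276 CPM with Az39 (6.91 ± 2.19, adjusted p = 0.131). ICL, isocitrate lyase of the glyoxylate cycle that turns seed oil into sugar, had 6103 and 422 CPM with ipdc, against 12.3 and 43.3 CPM with Az39 (6.86 ± 1.46, adjusted p = 0.0580). Replicate 1 of ipdc was the high library in ECP31, CRA1 and ICL.

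Some of the most changed genes of unknown function followed the same library. AT1G03106, an uncharacterized protein, had 2513 and 199 CPM with ipdc, against 0.823 and 3.61 CPM with Az39 (9.18 ± 1.77, adjusted p = 0.0481). Leaving out ipdc replicate 1 gave it 6.35. AT3G16120, annotated as a dynein light chain, had 797 counts with ipdc and 1 with Az39, a depth-scaled ratio of 890 with an interval of 159 to 35200. AT4G27530 had 387 and 3 counts, a ratio of 144 (48.9 to 701), and AT1G15840 had 385 and 3, a ratio of 143 (48.7 to 698). These 95% intervals cover counting error only, and all 3 genes had adjusted p over 0.05 without ipdc replicate 1 (0.0654, 0.0786 and 0.0793). The MATE transporter AT1G15180 had 115 and 22.4 CPM with ipdc, against 1.03 and 1.84 CPM with Az39 (5.54 ± 1.05, adjusted p = 0.0474), with 3.89 and an adjusted p of 0.0715 without that library. GSTF3, a glutathione transferase, had 33.1 and 7.60 CPM with ipdc, against 0.411 and 0.544 CPM with Az39 (5.36 ± 0.88, adjusted p = 0.0339) and 3.90 without it, and its close copy GSTF2 makes the assignment of reads uncertain.

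Carbon status and the clock gave 2 edgeR calls each. ASN1, the asparagine synthetase that rises in darkness and sugar shortage, had 45.7 and 15.9 CPM with ipdc, against 2.57 and 3.61 CPM with Az39 (3.296 ± 0.57, adjusted p = 0.0387), and 2.3 without ipdc replicate 1. DRM2, a dormancy-associated gene, had 469 and 276 CPM with ipdc, against 81.2 and 137 CPM with Az39 (1.77 ± 0.33, adjusted p = 0.0459), with an adjusted p of 0.0776 without ipdc replicate 1. EdgeR did not call the other 26 of 28 tested sugar starvation genes, while DESeq2 called 4 genes of the list, and the list's median was 0.34, or 0.47 without ipdc replicate 1 and 0.37 without ipdc replicate 2. ELF4, of the evening complex of the clock, had 47.6 and 37.4 CPM with ipdc, against 15.22 and 13.9 CPM with Az39 (1.54 ± 0.21, adjusted p = 0.0178). FKF1, a blue light receptor under clock control, had 43.4 and 27.7 CPM with ipdc, against 7.82 and 12.9 CPM with Az39 (1.77 ± 0.34, adjusted p = 0.0481), and 0.0829 as adjusted p without ipdc replicate 1. In all 4 genes replicate 1 was the higher ipdc library and both were above Az39. The 18 tested clock genes had a median of 0.62, which was 0.35 without ipdc replicate 1. The time of day of sampling is not given.

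EXPA3, an expansin that loosens cell walls, had 26.1 and 16.5 CPM with ipdc, against 3.5 and 4.15 CPM with Az39 (2.47 ± 0.36, adjusted p = 0.0228), the one edgeR call among 22 expansins. Their median was 0.15, or 0.13 without ipdc replicate 1 and -0.03 without ipdc replicate 2, and DESeq2 called 2 higher and 2 lower. GRF5, a growth-regulating factor of leaf primordia, had 59.3 and 10.9 CPM with ipdc, against 0.514 and 1.5 CPM with Az39 (5.04 ± 0.89, adjusted p = 0.0403), and 3.33 with an adjusted p of 0.0569 without ipdc replicate 1. ER, the ERECTA receptor kinase of shoot growth, chosen after its values were seen, had 55.8 and 43.3 CPM with ipdc, against 5.66 and 9.19 CPM with Az39 (2.73 ± 0.53, adjusted p = 0.0498), with 0.0719 as adjusted p without ipdc replicate 1. The ipdc libraries were above Az39 in all 3. Cell cycle and DNA replication genes lay the other way. Of 46 tested, 45 had a log2 fold change below 0, 39 had both ipdc libraries below both Az39 libraries, and the median was -0.58. Of them 22 had an unadjusted p under 0.05, all lower, but edgeR and limma-voom called none, and DESeq2 called 6. The median was -0.40 without ipdc replicate 1 and -0.82 without ipdc replicate 2. CYCA2;3, an A-type cyclin, had 13.2 and 17.5 CPM with ipdc, against 32.2 and 24.8 CPM with Az39 (-0.89 ± 0.24, adjusted p = 0.0857). RNR1, the large subunit of ribonucleotide reductase, had 73.5 and 85.0 CPM with ipdc, against 119 and 126 CPM with Az39 (-0.63 ± 0.17, adjusted p = 0.0906). Their libraries did not overlap between the strains, as was so in the lower direction for 21.7% of all genes.

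**Figure D4:**
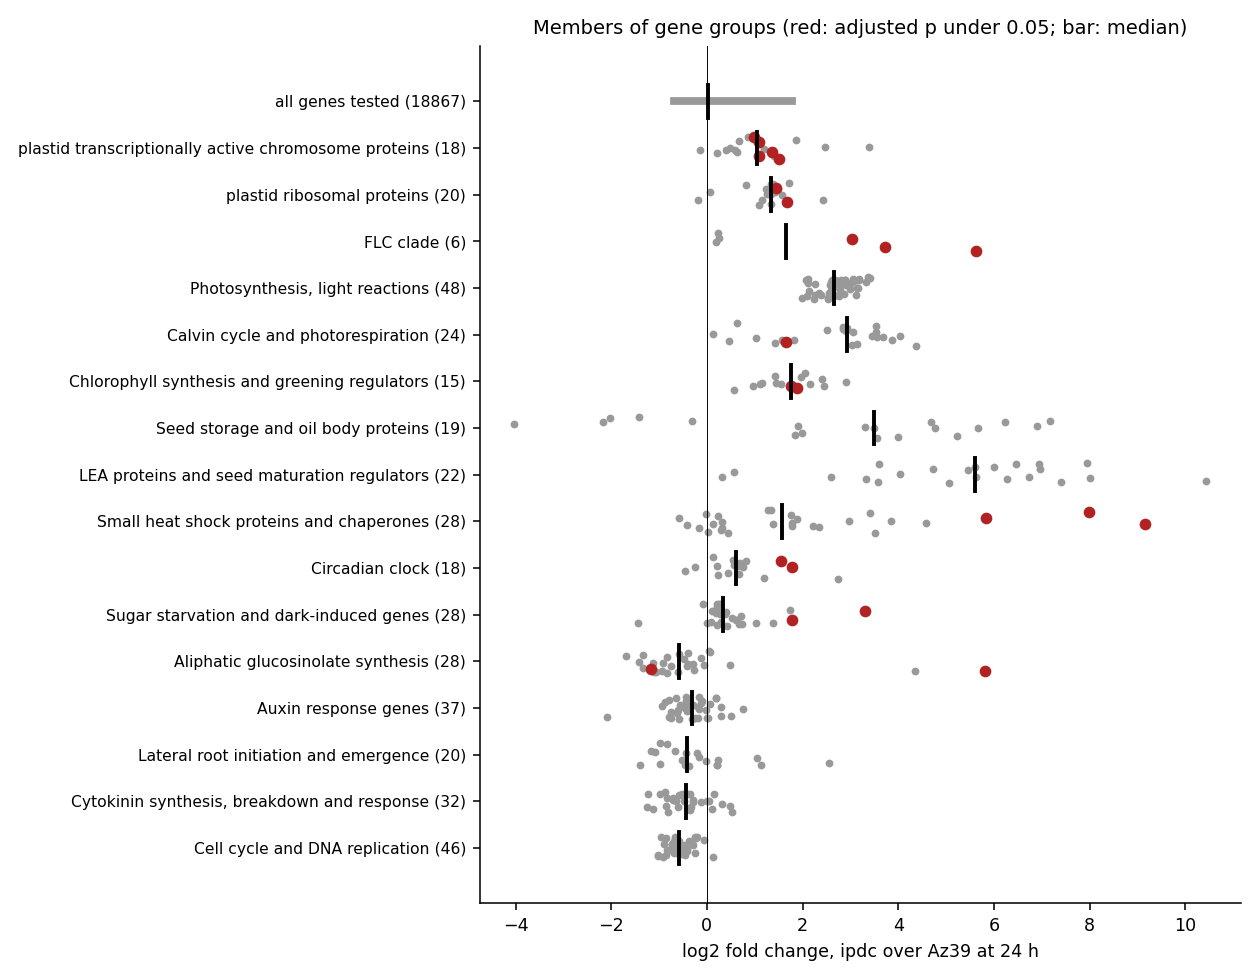
Log2 fold change of ipdc over Az39 at 24 h (x axis) for each tested member of 16 gene groups (y axis, with the number tested); grey points were not called, red points had an adjusted p under 0.05, and black bars are medians. The first row gives the span from the 5th to the 95th percentile of all genes, -0.68 to 1.78. Photosynthesis, seed and LEA groups lie far right with few or no red points, the PTAC group has 5, and the cell cycle group lies left of 0.

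The 17 genes called lower were mostly close between replicates. ABCG39, an ABC transporter of the pleiotropic drug resistance type, had 0.568 and 1.5 CPM with ipdc, 5.04 and 8.03 CPM with Az39 and 3.03 and 3.45 CPM with saline (ipdc over Az39 -2.65 ± 0.44, adjusted p = 0.0365). AT4G14060, of the polyketide cyclase and lipid transport family, had 5.77 and 6.54 CPM with ipdc, 20.6 and 26.1 CPM with Az39 and 21.3 and 30.1 CPM with saline (-1.92 ± 0.23, adjusted p = 0.0161). AT1G03820, an E6-like protein, had 16.8 and 24.1 CPM with ipdc, 58.0 and 62.3 CPM with Az39 and 61.6 and 51.5 CPM with saline (-1.55 ± 0.22, adjusted p = 0.0228). For the last 2 genes the Az39 and saline levels overlapped and ipdc was below both, while ABCG39 was highest with Az39. ABCG39 stood at -3.52 without ipdc replicate 2. GH9B8, a glycosyl hydrolase of the endoglucanase family, had 16.18 and 22.3 CPM with ipdc, against 44.2 and 54.1 CPM with Az39 (-1.35 ± 0.21, adjusted p = 0.0269). AT4G24780, a pectin lyase-like protein, had 106 and 109.8 CPM with ipdc, against 234 and 268 CPM with Az39 (-1.22 ± 0.23, adjusted p = 0.0481), with an adjusted p of 0.0790 without ipdc replicate 1. SLAH1, an anion channel homologue of the root vasculature, had 8.90 and 6.01 CPM with ipdc, against 19.4 and 18.23 CPM with Az39 (-1.34 ± 0.26, adjusted p = 0.0496), with 0.0612 without ipdc replicate 2. AGL42, a MADS-box factor, had 11.4 and 11.3 CPM with ipdc, against 21.7 and 24.9 CPM with Az39 (-1.04 ± 0.17, adjusted p = 0.0351). The remaining lower genes named by the ranking were AT1G14630 at -1.67, AT4G18630 at -1.499, AT2G40130 at -1.48 and AT1G33440 at -1.403, and the call of AT2G40130 was lost without ipdc replicate 1 (adjusted p = 0.0713).

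Auxin genes, which the contrast is about, gave no edgeR call at 24 h. Of 37 tested auxin response genes, 29 had a log2 fold change below 0 and 18 had both ipdc libraries below both Az39 libraries. Over all 18867 genes, 8792 were below 0 and 21.7% had both ipdc libraries below. The median of the auxin response genes was -0.32, or -0.29 without ipdc replicate 1 and -0.44 without ipdc replicate 2. By edgeR 11 of these genes were lower and 2 higher at an unadjusted p under 0.05. Limma-voom called none, and DESeq2 called 2 lower and 1 higher. GH3.17, an enzyme that conjugates auxin to glutamate, had 26.9 and 31.1 CPM with ipdc, against 53.5 and 56.9 CPM with Az39 (-0.93 ± 0.23, adjusted p = 0.0731). IAA7, an Aux/IAA repressor, had 40.6 and 43.9 CPM with ipdc, against 26.4 and 24.0 CPM with Az39 (0.75 ± 0.18, adjusted p = 0.0701). GH3.17 was low and IAA7 high in both ipdc libraries, and neither was called. IAA19, a rapidly induced repressor, had 5.49 and 7.51 CPM with ipdc, against 10.1 and 9.39 CPM with Az39 (-0.58 ± 0.22, adjusted p = 0.202). IAA5, of the same family, had 0.284 and 0.619 CPM with ipdc, against 0.926 and 0.680 CPM with Az39 (-0.80 ± 0.80, adjusted p = 0.643), low in all 4 libraries and not called, with both ipdc libraries below both Az39 libraries. Other early auxin genes overlapped between the strains. IAA1 was -0.02 ± 0.36, IAA2 was 0.03 ± 0.20, GH3.3 was -0.18 ± 0.62 and the lateral root factor LBD16 was -0.21 ± 0.38 as log2 fold changes. The signs of these 4 genes turned when 1 library was left out.

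Synthesis and transport of auxin likewise gave no call by edgeR or limma-voom. The 18 tested genes of auxin and tryptophan synthesis had a median of -0.14, with -0.16 without ipdc replicate 1 and -0.28 without ipdc replicate 2. Of them 1 was lower at an unadjusted p under 0.05, and DESeq2 called none. The 17 of auxin transport had a median of -0.21, with -0.28 without ipdc replicate 1 and -0.39 without ipdc replicate 2. Of them 5 were lower at an unadjusted p under 0.05, and DESeq2 called 3 lower. TAA1, the aminotransferase that makes indole-3-pyruvate, had 12.6 and 15.6 CPM with ipdc, against 17.3 and 14.4 CPM with Az39 (-0.16 ± 0.30, adjusted p = 0.820). LAX2, an auxin influx carrier, had 52.4 and 65.2 CPM with ipdc, against 86.5 and 102 CPM with Az39 (-0.68 ± 0.17, adjusted p = 0.0809). LAX2 was low in both ipdc libraries, while TAA1 overlapped. Lateral root genes, 20 tested, had a median of -0.41, with -0.39 without ipdc replicate 1 and -0.52 without ipdc replicate 2. Cytokinin genes, 32 tested, had a median of -0.44, with -0.27 without ipdc replicate 1 and -0.73 without ipdc replicate 2. Neither list held a call by edgeR or limma-voom. At an unadjusted p under 0.05 there were 2 higher and 4 lower lateral root genes and 8 lower cytokinin genes, and DESeq2 called 1 higher and 2 lower lateral root genes and 2 lower cytokinin genes. AHK4, a cytokinin receptor, had 54.1 and 61.4 CPM with ipdc, against 87.6 and 100.2 CPM with Az39 (-0.70 ± 0.15, adjusted p = 0.0616), lower in both ipdc libraries. The root identity gene SHR had 23.2 and 29.1 CPM with ipdc, against 44.5 and 48.6 CPM with Az39 (-0.83 ± 0.20, adjusted p = 0.0701) and SCR had 37.8 and 44.8 CPM with ipdc, against 77.9 and 59.0 CPM with Az39 (-0.73 ± 0.19, adjusted p = 0.0848). The 16 tested root identity genes had a median of -0.31, with -0.49 without ipdc replicate 1 and -0.14 without ipdc replicate 2. EdgeR and limma-voom called none of them, 1 was higher and 4 were lower at an unadjusted p under 0.05, and DESeq2 called 2 lower.

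Aliphatic glucosinolate genes were mostly lower in value with ipdc, and edgeR called 1 in each direction. Of 28 tested, 23 had a log2 fold change below 0 and 16 had both ipdc libraries below both Az39 libraries, against 21.7% of all genes. At an unadjusted p under 0.05 there were 2 higher and 13 lower. DESeq2 called 1 higher and 10 lower, and limma-voom 1 lower. CYP79F1, at chr1:5608682-5612064, makes aldoximes from chain-elongated methionine and had 11.6 and 17.77 CPM with ipdc, 0.411 and 0.136 CPM with Az39 and 3.5 and 0.852 CPM with saline (ipdc over Az39 5.81 ± 0.94, adjusted p = 0.0313). Az39 was the lowest group, below saline, and the fold change was 6.68 without Az39 replicate 1 and 5.13 without Az39 replicate 2. Its tandem copy CYP79F2, looked up after the values were seen, had the opposite sign, with 23.1 and 39.4 CPM with ipdc, against 90.11 and 67.9 CPM with Az39 (-1.34 ± 0.30, adjusted p = 0.0671), so the assignment of reads between the copies is uncertain. IPMI1, an isopropylmalate isomerase of methionine chain elongation, had 29.0 and 43.0 CPM with ipdc, 78.1 and 84.4 CPM with Az39 and 50.5 and 45.3 CPM with saline (-1.17 ± 0.20, adjusted p = 0.0398). Az39 was the highest group for IPMI1, and the ipdc libraries were below saline. The list's median log2 fold change was -0.59, with -0.37 without ipdc replicate 1 and -1.09 without ipdc replicate 2. Indole glucosinolate genes, 21 tested, had a median of -0.41, with -0.28 without ipdc replicate 1 and -0.69 without ipdc replicate 2. EdgeR and limma-voom called none in this list, 2 were higher and 4 lower at an unadjusted p under 0.05, and DESeq2 called 1 lower. Outside the list, edgeR called higher IGMT4, named as an indole glucosinolate methyltransferase and looked up after the values were seen. Its log2 fold change was 1.99 without ipdc replicate 1 and 1.23 without ipdc replicate 2. Pattern-triggered immunity genes, 32 tested, had a median of 0.63, with 0.66 without ipdc replicate 1 and 0.24 without ipdc replicate 2. None of the 3 tools called any, and 2 were higher at an unadjusted p under 0.05.

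In all, edgeR called a gene in 7 of the 36 lists. In the other 29 lists limma-voom made no call either, while DESeq2 called a gene in 22 of them. DESeq2 called 1388 of 20731 genes in all, or 6.7%, against 0.392% for limma-voom and 0.959% for edgeR. The lists for gibberellin, ethylene, jasmonate, salicylic acid, abscisic acid, nitrogen, phosphate, iron, water channels, root hairs, xylem, suberin, hypoxia, flavonoids and PYK10 bodies held no edgeR call, with medians between -0.24 and 0.28, between -0.27 and 0.46 without ipdc replicate 1 and between -0.60 and 0.32 without ipdc replicate 2. Of the 360 genes tested over these 15 lists, 45 higher and 23 lower had an unadjusted p under 0.05, beside a share of 18.6% over all genes. DESeq2 called 16 of them higher and 8 lower, beside 6.7% of all genes it fitted. The lists do not hold every gene of their pathways. Outside them edgeR called higher, for example, ABA1, of the path to abscisic acid, and IREG3, annotated as an iron-regulated protein. VSP1, a jasmonate-induced storage protein, had 40.7 and 36.1 CPM with ipdc, against 85.0 and 77.5 CPM with Az39 (-1.08 ± 0.26, adjusted p = 0.0713), and PYK10, the abundant root glucosidase, had 7132 and 7577 CPM with ipdc, against 7122 and 6157 CPM with Az39 (0.15 ± 0.25, adjusted p = 0.798). VSP1 was low in both ipdc libraries and PYK10 nearly level.

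Set beside saline, the genes called higher were at a median log2 fold change of 1.63 with ipdc and -0.02 with Az39. Those called lower were at -1.51 with ipdc and -0.06 with Az39. These values share libraries with the strain contrast, so they describe where the difference lay and are no second test. Over all genes, ipdc over saline gave 398 calls, or 2.11%, of which the higher ones made 1.93% of tested genes. Az39 over saline gave none by edgeR or limma-voom and 2 by DESeq2, with 249 genes (1.32%) at an unadjusted p under 0.05. For SCO1 the values over saline were 1.66 with ipdc and 0.08 with Az39, and for FLC they were 4.43 and -1.20.

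At 7 days, in libraries outside the 24 h groups, the difference between the strains was mostly small in these genes. The 164 genes called higher had a median of 0.18 there, with 116 above 0, or 70.7%, against 48.2% of all genes. The 17 called lower had a median of -0.14, with 11 below 0. Over all genes the 7 day contrast gave 22 calls, or 0.117%, all lower with ipdc. GH9B8 was called lower at both times, with 14.2 and 12.9 CPM with ipdc, against 48.3 and 35.1 CPM with Az39 at 7 days (log2 fold change -1.62, adjusted p = 0.0314). Its ipdc libraries were below both Az39 libraries at each time. PTAC genes had a median of 0.23 at 7 days and plastid ribosomal protein genes 0.06.

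The strain difference itself differed between the times in 2 genes, or 0.0106% of those tested. GSTU5, a tau glutathione transferase, had 26.0 and 35 CPM with ipdc, against 9.98 and 10.4 CPM with Az39 at 24 h (1.58 ± 0.28, adjusted p = 0.0418). At 7 days it had 26.4 and 24.5 CPM with ipdc, against 244 and 256 CPM with Az39, a log2 fold change of -3.296. The difference between the contrasts was 4.88 ± 0.40 (adjusted p = 0.00539). AT1G78830, a curculin-like lectin, had 61.9 and 64.6 CPM with ipdc, against 27.6 and 24.3 CPM with Az39 at 24 h (1.29 ± 0.17, adjusted p = 0.0178) and 126 and 128 CPM with ipdc, against 316 and 258 CPM with Az39 at 7 days, a log2 fold change of -1.18. Its difference was 2.47 ± 0.24 (adjusted p = 0.0154). In both genes ipdc was the higher strain at 24 h and Az39 the higher at 7 days, with no overlap at either time. By edgeR no gene was called for this difference without Az39 replicate 1 or 2 of 24 h or without ipdc replicate 2 of 7 days, and 1 was without Az39 replicate 1 of 7 days, while 42 and 392 were without ipdc replicates 1 and 2 of 24 h.

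**Figure D5:**
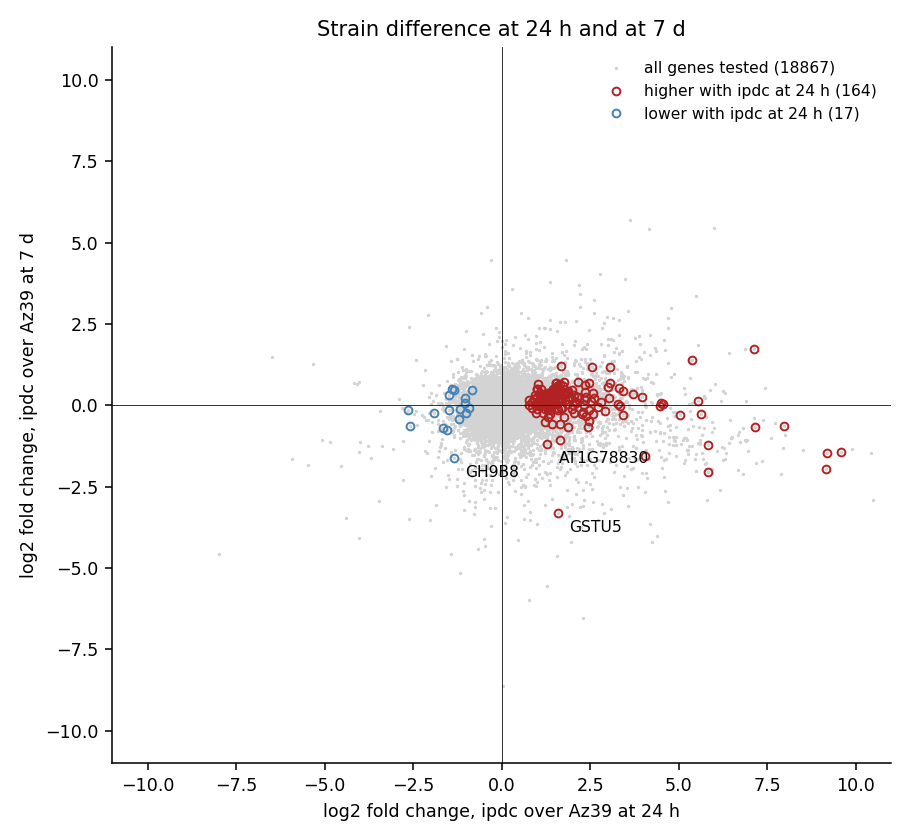
Log2 fold change of ipdc over Az39 at 24 h (x axis) and at 7 days (y axis); grey points are all 18867 genes tested, red circles the 164 genes called higher at 24 h and blue circles the 17 called lower. GSTU5 (1.58 and -3.296) and AT1G78830 (1.29 and -1.18) lie below the horizontal line, and GH9B8 (-1.35 and -1.62) was lower with ipdc at both times.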

How the data were processed

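Whole-root RNA was sequenced as 150 bp single-end reads. The authors deposited raw counts per gene for 12 libraries; per the submitters' processing notes the tools were HISAT2 2.2.1 and featureCounts with build TAIR10, and no source used here gives strand or multiple-mapping settings. Of 21200 genes, 469 had no count. Genes were filtered by edgeR's filterByExpr (minimum count 10, total 15, proportion 0.7), which left 18867, and scaled by TMM. All 12 libraries were fitted with one mean per group (6 groups, 6 residual degrees of freedom) using edgeR 4.0.16 in R 4.3.3, with a two-sided quasi-likelihood F test, Benjamini-Hochberg adjustment over all genes and a threshold of 0.05. The biological coefficient of variation was 24.5%. Standard errors are the log2 fold change over the root of F; fold changes used a prior count of 0.125. With 2 libraries a group, the spread rests on all groups.

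Genes were named by rank among called genes (12 each way, mean CPM at least 2), from 36 gene lists (up to 4 called members, or 2 with smallest p), from a fixed set of 20 auxin, organ and root genes and by the 5 smallest p between times; others were named after their values were seen, as said. Members and lists were chosen with earlier results of these data known. Genes with under 4 counts in a compared group have no fitted fold change. Alternatives included DESeq2 1.42.0 and limma 3.58.1. Names, locations and sequences came from RefSeq TAIR10.1, which held 21120 of the IDs.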

Additional observations from a re-analysis of the deposited data

Results flagged for a closer look

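For 2 genes the difference between the strains at 24 h differed from that at 7 days by a test of the difference itself. GSTU5 had a log2 difference of 4.88 between the contrasts (adjusted p = 0.00539), from 1.58 at 24 h and -3.296 at 7 days. AT1G78830 had 2.47 (adjusted p = 0.0154), from 1.29 at 24 h and -1.18 at 7 days. All 8 libraries of the strains enter each value, 2 in each group at each time, and neither gene's groups overlapped. What sets the 7 day levels apart was not tested.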

How the results depend on the processing

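The count of 181 calls (164 higher, 17 lower; 2 for the difference between times) moved with the model more than any single direction did. It was 1388 (1126 and 262; 365) with DESeq2, 74 (69 and 5) with limma-voom, 8 (8 and 0) against a 1.5-fold change, and 0 with the 24 h libraries only or the 4 compared libraries only (2713 and 2371 genes at an unadjusted p under 0.05). Filters on low counts gave 7 (none) and 6 (stricter) calls between times. Shares as covariates gave 635 (620 higher; 52) for seed storage, 1410 (1089 and 321; 451) for photosynthesis and 0 for both together. Log2 shares, added after the data were seen, gave 4 (0 and 4; 0), 941 (790 and 151; 50) and, both together, 2 (0 and 2; 0). With both linear shares the variance grew 117-fold and 51 of 106 named genes changed sign, so their single values there are not given. Leaving out 1 library gave 0 to 1331 calls (0 to 1031 higher, 0 to 300 lower) and 0 to 392 between times. The fit with a replicate block within each time gave 6 (5 and 1; 1). Replicate marks do not pair samples by the labels, and the deviations of ipdc and Az39 replicates at 24 h correlated at -0.225. Of 106 named genes over 20 settings, 1661 values kept direction and side of the threshold, 286 lost it, 132 passed it and 33 turned sign, in 14 genes of which 0 were called. Called genes were chosen on these same libraries, so their kept signs are no separate support. The turned values were, with the seed share, HSFA1E -0.16, IAA1 0.48, GH3.3 0.57, GH3.5 0.022, TAA1 0.0083 and PIN2 -0.57; with the photosynthesis share, IAA2 -0.031; with the log2 seed share, GH3.3 0.34, LBD29 0.13, TAA1 0.10, AUX1 0.0040, LAX3 0.043 and OLEO1 -1.84; with the log2 photosynthesis share, LBD16 0.072; with both log2 shares, LBD16 0.037, TAA1 0.026, AUX1 0.34, LAX3 0.28, OLEO1 -2.73, RBCS1A -0.077 and LHCB1.3 -0.40. With 1 library left out the log2 fold changes spanned HSFA1E -0.076 to 2.55, IAA1 -0.71 to 0.39, GH3.3 -1.42 to 0.54, PIN2 -0.59 to 0.58, IAA2 -0.093 to 0.16, LBD29 -0.45 to 0.14, AUX1 -0.43 to 0.043 and LBD16 -0.61 to 0.37. The causes were not tested. Depth limits the lowest genes: those at 1 to 3 counts with Az39 have only counting intervals.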

Other observations

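The seed markers did not keep the same proportions in all libraries. In ipdc replicate 1, the storage globulin gene CRA1 had 343071 counts and the albumin gene SESA3 had 382, and in ipdc replicate 2 they had 19017 and 26. In Az39 replicate 2, CRA1 had 4059 counts and SESA3 had 2296, and in Az39 replicate 1 they had 72 and 0. CRU3, another globulin gene, had 200120 and 11739 counts with ipdc, against 48 and 3829 with Az39. The saline libraries of 24 h had 1782 and 456 counts of CRA1 and 265 and 33 of SESA3. These genes were singled out after their values were seen.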
